A study of Mus musculus with 2 samples.

Results

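Expression of 45 genes of DNA replication and mitosis was examined in sorted foetal mouse germ cells, among 42422 genes in the count table. The members were listed by symbol and matched to the table through their Ensembl identifiers. There were 22 genes of S phase and 23 genes of mitosis, and all 45 were found, were annotated as protein coding and passed the filter on low counts that left 15252 genes. The aim was to follow the genes of the mitotic cell cycle while XY germ cells leave it, and to compare that course with XX germ cells and with XY germ cells cultured with inhibitors of FGF receptors or of MEK1/2.

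Germ cells came from embryos at E12.5 that were wild-type apart from an Oct4-eGFP transgene. The embryos were from Swiss females crossed with 129T2svJ males of the Oct4-eGFP line. The GFP transgene was used to sort the germ cells by FACS, so every group carries it. Germ cells were sorted before culture (0 h) or after gonads had been cultured with the mesonephros attached, which was then removed. Each library was made from the pooled gonads of several embryos. The groups were XX 0 h, XX 24 h DMSO, XX 72 h DMSO, XY 0 h, and XY cultured for 24 h or 72 h in vehicle (DMSO), in 500 nM BGJ398/Infigratinib (FGFRi, an inhibitor of FGF receptors) or in 500 nM PD0325901/Mirdametinib (MEKi, an inhibitor of MEK1/2). There were 10 groups of 4 libraries. Because both inhibitors reached the whole gonad, an effect on germ cells cannot be told apart from one on the somatic cells around them.

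Libraries were sequenced as 2 pools. Pool 1 was made of both 0 h groups, both 24 h DMSO groups and XY 24 h MEKi, and pool 2 of XY 24 h FGFRi with every 72 h group. A comparison of 72 h with 0 h or 24 h, and of 24 h FGFRi with 24 h DMSO, is thus also a comparison of pools, and the pool and the condition cannot be told apart in it. Total counts ran from 1178953 to 5199153 a library. The 6 germ cell markers (Ddx4, Dazl, Pou5f1, Mael, Dnd1 and Dppa3) summed to 2089 to 5640 CPM in the 40 libraries, and 12 markers of gonadal somatic cells to 19.4 to 131 CPM. Of the Sertoli cell markers among them, Amh had no count in 5 of the 10 groups (XX 0 h and XX 72 h DMSO among them) and Sox9 had counts in every library, at 1.39 to 3.88 CPM in XX 0 h and 7.56 to 60.1 CPM in XY 24 h DMSO. CPM are counts scaled to a common effective library size (TMM). Because counts were taken at the 3′ end and not divided by length, levels are compared between groups and not between genes. In these bulk samples, fewer cycling cells and less RNA per cell cannot be told apart.

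Before S phase, origins of replication are licensed when Cdc6 and Cdt1 load the MCM helicase, which Cdc45 and the GINS complex then activate. Mitosis is driven by Cdk1 with A and B cyclins and by the kinases Plk1, Aurka and Aurkb. E2F factors drive many genes of the G1/S transition, and the DREAM and B-Myb complexes, together with Foxm1, act on many G2/M genes. In the foetal gonad, XY germ cells enter a mitotic arrest in G1/G0 over several days after sex determination, whereas XX germ cells leave the mitotic cycle through a last S phase and enter meiosis, and XX and XY germ cells therefore lose mitotic division by different routes.

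The promoters of a few members are shown because S phase and mitosis members differed in known sequence elements. Windows from 250 bases before to 50 bases after the annotated start were taken from RefSeq (GRCm38.p6, another build than the GRCm39 of the counts), and 36 of the 45 members had at least 1 window. A gene was counted once when any of its windows held the letters. An E2F element was searched as TTTGGCGC, TTTCGCGC, TTTCCCGC or TTTGCCGC, and the cell cycle homology region (CHR), the element through which DREAM binds G2/M promoters, as TTTGAA or TTCGAA, both on either strand. E2F letters were in 7 of 18 S phase genes (38.9%) and in 1 of 18 mitosis genes (5.56%, Cdk1), against 2.605% of 27025 genes. CHR letters were in 3 of 18 S phase genes (16.7%) and 14 of 18 mitosis genes (77.8%), against 21.7% of all genes. CCAAT was in 66.7% of S phase genes, 83.3% of mitosis genes and 41.1% of all genes. The median GC content was 57.3% in S phase windows, 59.7% in mitosis windows and 52.7% over all windows. The 160 bases before the start are printed 5′ to 3′ on the strand of the gene, with E2F and CHR matches of either strand in capitals, where adjoining matches on opposite strands can run into one another.
Mcm6 (chr1:128359706-128359865, - strand): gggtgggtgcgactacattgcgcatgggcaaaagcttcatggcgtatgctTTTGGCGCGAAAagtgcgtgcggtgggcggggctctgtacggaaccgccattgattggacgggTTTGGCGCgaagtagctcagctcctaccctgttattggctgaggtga
Mcm5 (chr8:75109349-75109508, + strand): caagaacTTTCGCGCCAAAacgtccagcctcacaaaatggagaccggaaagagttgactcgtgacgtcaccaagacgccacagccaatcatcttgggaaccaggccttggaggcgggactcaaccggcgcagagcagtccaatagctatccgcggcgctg
Cdc6 (chr11:98907991-98908150, + strand): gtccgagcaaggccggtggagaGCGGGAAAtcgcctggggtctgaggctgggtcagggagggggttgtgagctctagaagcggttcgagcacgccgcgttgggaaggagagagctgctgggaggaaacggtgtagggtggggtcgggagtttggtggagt
Cdk1 (chr10:69352913-69353072, - strand): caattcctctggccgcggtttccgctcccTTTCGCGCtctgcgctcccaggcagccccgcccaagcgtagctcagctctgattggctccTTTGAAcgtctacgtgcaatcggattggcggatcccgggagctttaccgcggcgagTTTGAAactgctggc
Mki67 (chr7:135716380-135716539, - strand): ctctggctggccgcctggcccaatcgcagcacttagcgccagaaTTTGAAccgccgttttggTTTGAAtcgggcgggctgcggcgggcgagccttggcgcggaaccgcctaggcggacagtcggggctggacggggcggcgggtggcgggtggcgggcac
Ube2c (chr2:164769769-164769928, + strand): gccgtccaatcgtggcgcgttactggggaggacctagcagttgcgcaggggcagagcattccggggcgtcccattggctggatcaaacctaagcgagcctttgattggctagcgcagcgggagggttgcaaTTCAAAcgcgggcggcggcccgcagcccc

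In Mcm6 and Mcm5, both subunits of the MCM helicase, and in Cdc6, which loads it, the capitals are E2F letters. In Mki67, which encodes the chromosome surface protein Ki-67, and in Ube2c, the ubiquitin-conjugating enzyme of the APC/C, they are CHR letters. Cdk1 holds 1 E2F match followed by 2 CHR matches. A match describes the letters in the window and is not evidence of binding.

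Summed over the 45 members, the share of all counts was lowest in XY germ cells after 72 h in DMSO or FGFRi. It was 0.989 ± 0.0413% (mean ± SD, n = 4 libraries here and below) in XY 0 h, 0.853 ± 0.121% in XY 24 h DMSO and 0.477 ± 0.0235% in XY 72 h DMSO. After 72 h in FGFRi it was 0.476 ± 0.0172%, and after 72 h in MEKi 0.710 ± 0.0262%. In XX germ cells it was 0.9749 ± 0.0287% at 0 h, 0.843 ± 0.0812% at 24 h and 0.629 ± 0.025% at 72 h. The XY 72 h MEKi libraries lay above all XY 72 h DMSO and FGFRi libraries and below all XY 0 h libraries. At 24 h the share was 0.896 ± 0.0418% in MEKi and 0.707 ± 0.0322% in FGFRi, and XY 24 h DMSO replicate 3, at 0.690%, was the lowest of its group. At 72 h the S phase members alone took 0.202% in XX DMSO, 0.194% in XY DMSO and 0.205% in XY FGFRi, with overlapping libraries. The mitosis members took 0.427%, 0.283% and 0.271% in these groups. The share summed over members is led by the 2 with the most counts, Top2a, the topoisomerase that untangles chromosomes, and Cenpf, a kinetochore protein.

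**Figure D1:**
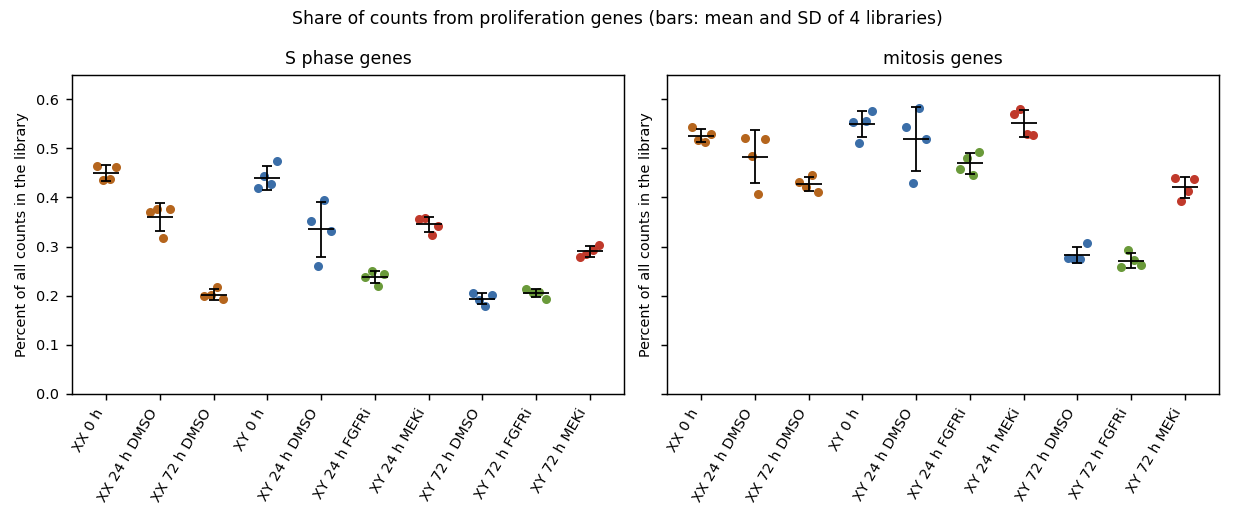
Share of all counts taken by the S phase members and by the mitosis members (y axes, percent) in each library of the 10 groups (x axis), with bars for group means and error bars for the SD over 4 libraries. The XY 72 h DMSO and XY 72 h FGFRi libraries lie lowest in the mitosis members, and XY 72 h MEKi lies between them and XY 0 h.

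XY germ cells in DMSO showed few changes in these genes after 24 h and a broad decrease by 72 h, a comparison that crosses the pools. A gene was called when its change exceeded 1.5-fold at FDR < 0.05 by limma (treat). After 24 h against 0 h, 1 of 45 members fell and 0 rose, where 1.33% of all genes tested fell and 1.61% rose. The gene was Rrm2, the regulated subunit of ribonucleotide reductase, which makes deoxyribonucleotides. The median log2 fold change of the members was -0.35, and that of all genes 0.02. S phase members had a median of -0.46 and mitosis members of -0.12, and in 15 members (10 of S phase) all libraries at 24 h lay below all at 0 h, as in 10.9% of all genes tested.

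By 72 h, 34 of 45 members (17 of S phase and 17 of mitosis) were lower than at 0 h and 0 were higher, where 15.2% of all genes were lower and 20.2% higher. The median log2 fold change was -1.41 over the members and 0.06 over all genes. In 38 members the libraries of both times did not overlap, all lower at 72 h, where 26.4% of all genes lay lower in this way. Summed endothelial markers were at 2.59 to 4.46 CPM in XY 0 h and 7.52 to 16.1 CPM in XY 72 h DMSO (Cdh5 called higher, 1.94 on the log2 scale), somatic markers at 41.9 to 102 and 66.6 to 96.7 CPM (2 of 10 tested called higher, Pdgfra and Fst), and blood markers at 37.6 to 254 and 17.0 to 51.8 CPM (Hbb-y and Hba-x called lower), and 3 of 6 germ cell markers were called higher (Ddx4, Mael and Dnd1). Their part in these differences was not tested. Relative to the mean at 0 h, the median member stood at 38.0% after 72 h in DMSO, ranging from 4.99% for Rrm2 to 104.2% for Cenpe, and 34 members stood below 50%. Between 24 h and 72 h, 28 members fell (12 of S phase and 16 of mitosis) and 0 rose, where 11.3% of all genes fell and 16.0% rose. Of the markers, Ddx4, Mael, Pdgfra and Cdh5 were called higher and Dppa3 lower between these times. Against 0 h, all 9 licensing genes and all 7 cyclins and mitotic kinases fell, as did 2 of 3 helicase activators, 2 of 5 polymerase and clamp genes, 3 of 4 genes of nucleotide supply, 3 of 5 genes of the spindle checkpoint and APC/C, 5 of 8 genes of spindle, kinetochore and cytokinesis, and both Mki67 and Top2a. The call of Kif11 was lost without XY 72 h DMSO replicate 4, and that of E2f1 without replicate 5 of that group and with DESeq2. The 11 members not called were Gins2, Rfc4, Pola1, Pole, Rrm1, Foxm1, Bub1, Cdc20, Cenpe, Cenpf and Anln.

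**Figure D2:**
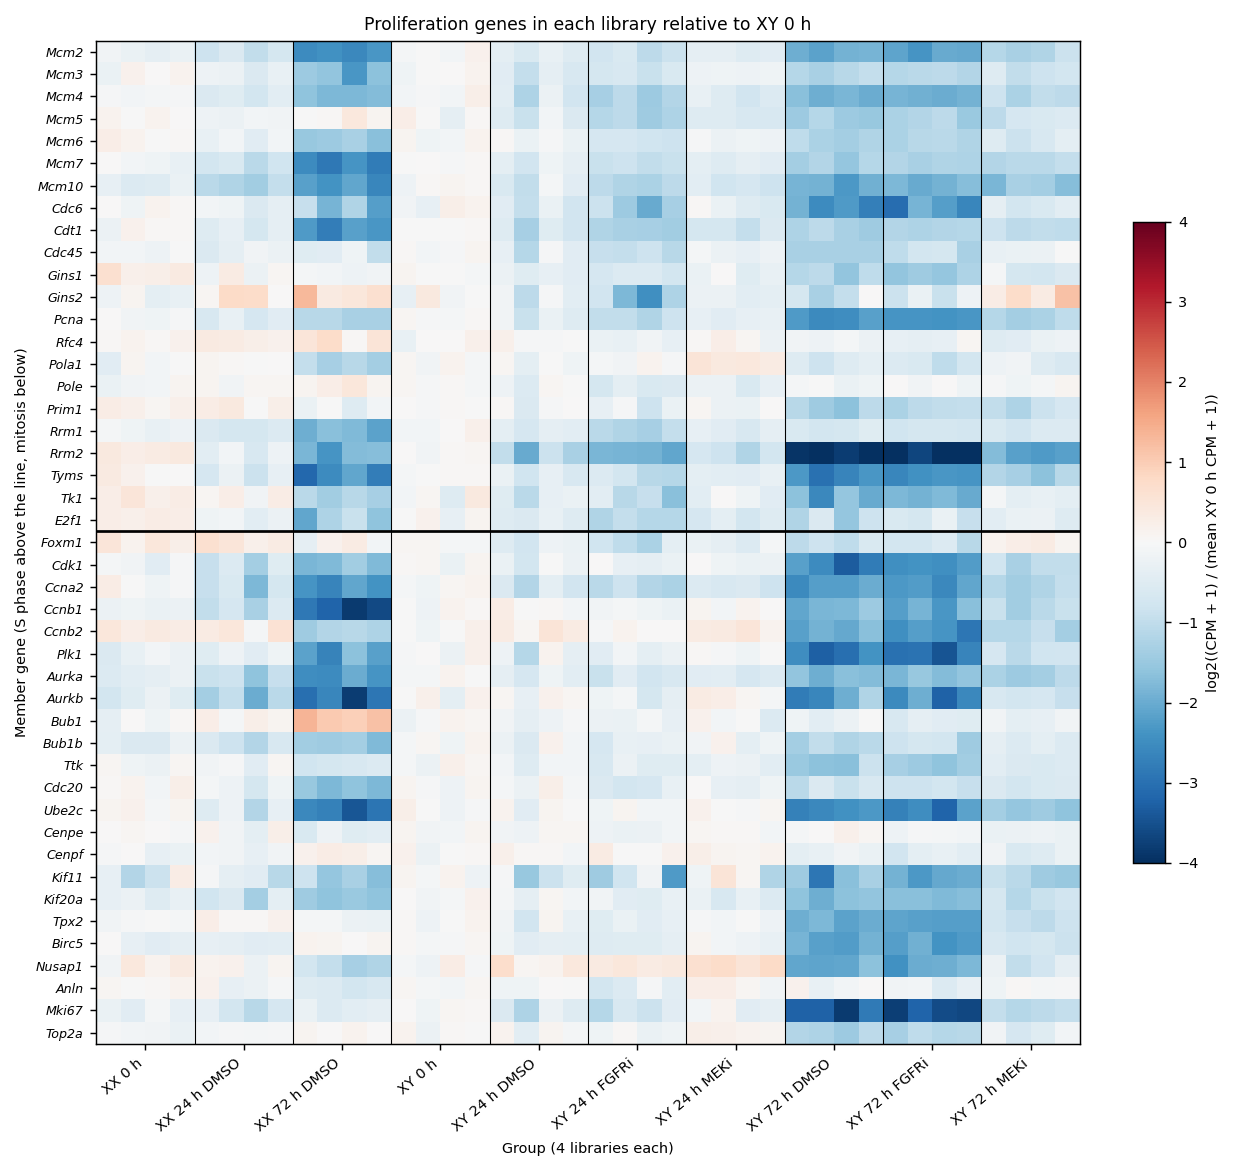
Log2 of CPM + 1 in each library (columns, 4 for each of the 10 groups) over the mean CPM + 1 of XY 0 h, for each of the 45 members (rows, S phase above the line and mitosis below), with the colour scale limited to ±4 log2 units. Most rows are lower than XY 0 h at 72 h in XY DMSO and XY FGFRi, and rows such as Mki67 and Birc5 stay near the level of XY 0 h in XX 72 h DMSO.

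The S phase members with values in each library are given first, in order of replicate number. Mcm5 (chromosome 8, 75836140 to 75856231, GRCm39) was at 344, 284, 224 and 299.8 CPM in XY 0 h, 200.1, 153, 268 and 194 CPM in XY 24 h DMSO and 104, 130.4, 104 and 99.5 CPM in XY 72 h DMSO. The 0 h and 24 h libraries overlapped, and every 72 h library lay below both, with a log2 fold change from 0 h to 72 h of -1.39 (95% CI -1.62 to -1.15). Cdc6 (chromosome 11, 98798507 to 98814766) was at 49.1, 43.8, 65.1 and 60.7 CPM at 0 h, 39.4, 27.6, 45.7 and 31.6 CPM at 24 h and 13.9, 8.78, 10.7 and 7.30 CPM at 72 h. It fell by 2.31 on the log2 scale from 0 h to 72 h, with no overlap. Pcna (chromosome 2, 132091082 to 132095234), the sliding clamp of the replicative polymerases, was at 385, 349, 347 and 375 CPM at 0 h, 331, 195, 301 and 257 CPM at 24 h and 75.6, 61.0, 64.6 and 80.3 CPM at 72 h. All 72 h libraries lay below every earlier library, with a log2 fold change of -2.37.

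The subunits of ribonucleotide reductase differed. Rrm2 (chromosome 12, 24757811 to 24764145) was at 211, 189, 215 and 220.2 CPM at 0 h, 105, 50.5, 115 and 84.9 CPM at 24 h and 13.0, 5.43, 13.98 and 9.29 CPM at 72 h, and no 2 of these groups overlapped. It fell by 1.22 on the log2 scale by 24 h (95% CI -1.51 to -0.94, FDR 0.0013 by limma) and had a log2 fold change of -4.37 by 72 h (95% CI -4.93 to -3.81, FDR 5.07e-17), the largest change of any member in XY germ cells. Rrm1 (chromosome 7, 102090890 to 102119709), which encodes the catalytic subunit, was at 234, 235, 255 and 295 CPM at 0 h, 196, 159, 198 and 189 CPM at 24 h and 167, 152, 158 and 180.5 CPM at 72 h. The 24 h and 72 h libraries of Rrm1 overlapped, and its log2 fold change by 72 h of -0.63 did not pass the test (FDR 0.608). E2f1 (chromosome 2, 154401326 to 154411812), a transcription factor of the G1/S transition, was at 75.5, 84.8, 59.7 and 82.3 CPM at 0 h, 52.9, 50.01, 61.2 and 53.0 CPM at 24 h and 32.2, 50.6, 25.3 and 41.8 CPM at 72 h. It was lower at 72 h than at 0 h, with a log2 fold change of -1.09, while the 72 h libraries overlapped those at 24 h.

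Among the mitosis members, Mki67 (chromosome 7, 135291513 to 135318299) was at 496, 431, 511 and 507 CPM in XY 0 h, 325, 205, 409.8 and 341 CPM in XY 24 h DMSO and 50.6, 51.0, 33.3 and 67.0 CPM in XY 72 h DMSO. The groups did not overlap, and at 72 h the mean was 10.4% of that at 0 h (log2 fold change -3.28, 95% CI -3.63 to -2.94, FDR 2.16e-19 by limma). Cdk1 (chromosome 10, 69170976 to 69236595) was at 92.6, 92.9, 73.1 and 96.0 CPM at 0 h, 74.1, 52.6, 87.3 and 74.7 CPM at 24 h and 18.8, 14.6, 7.99 and 11.9 CPM at 72 h. Its 0 h and 24 h libraries overlapped and all 72 h libraries were lower, with a log2 fold change from 0 h of -2.72. Ccnb1 (chromosome 13, 100915153 to 100923116), the main cyclin partner of Cdk1 in mitosis, was at 443, 386, 493 and 461 CPM at 0 h, 542, 437, 463 and 413 CPM at 24 h and 105, 125, 127 and 161 CPM at 72 h. Its log2 fold change was 0.06 by 24 h, not called, and -1.80 by 72 h, when no library overlapped an earlier one. Plk1 (chromosome 7, 121758646 to 121769108), which acts from mitotic entry to exit, was at 75.0, 78.9, 65.1 and 89.7 CPM at 0 h, 67.4, 34.4, 85.6 and 60.6 CPM at 24 h and 13.0, 7.11, 8.65 and 13.9 CPM at 72 h. It fell by 2.91 on the log2 scale from 0 h to 72 h, without overlap.

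Birc5 (chromosome 11, 117740040 to 117746581), a subunit of the chromosomal passenger complex with Aurkb, was at 135, 122, 125 and 136 CPM at 0 h, 115, 93.2, 100.1 and 97.9 CPM at 24 h and 34.9, 28.0, 26.6 and 33.8 CPM at 72 h. Each group lay below the one before, and only the 72 h group differed past the threshold, with a log2 fold change of -2.05 from 0 h. Top2a (chromosome 11, 98883769 to 98915062) was at 1222, 944, 1145 and 1099.7 CPM at 0 h, 1207, 826, 1177 and 1039 CPM at 24 h and 491, 465, 402 and 535 CPM at 72 h, a log2 fold change of -1.20 from 0 h to 72 h without overlap. Foxm1 (chromosome 6, 128339518 to 128353147), a transcription factor of G2/M genes, was at 39.0, 39.4, 35.6 and 35.3 CPM at 0 h, 25.9, 21.4, 32.7 and 31.1 CPM at 24 h and 17.5, 20.5, 17.97 and 23.9 CPM at 72 h. Its 72 h and 0 h libraries did not overlap, and the log2 fold change of -0.94 narrowly missed the threshold (FDR 0.0637 by limma). Foxm1 overlaps the coding genes Gm44596 and Tex52 on its own strand, so its counts may be split with them. Anln (chromosome 9, 22242402 to 22300501), a scaffold of the cytokinetic ring, was at 136, 122, 119 and 138 CPM at 0 h, 114, 114, 129.97 and 128 CPM at 24 h and 147, 106, 119.8 and 129 CPM at 72 h. The groups overlapped throughout, with a log2 fold change by 72 h of -0.03 (95% CI -0.26 to 0.20).

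**Figure D3:**
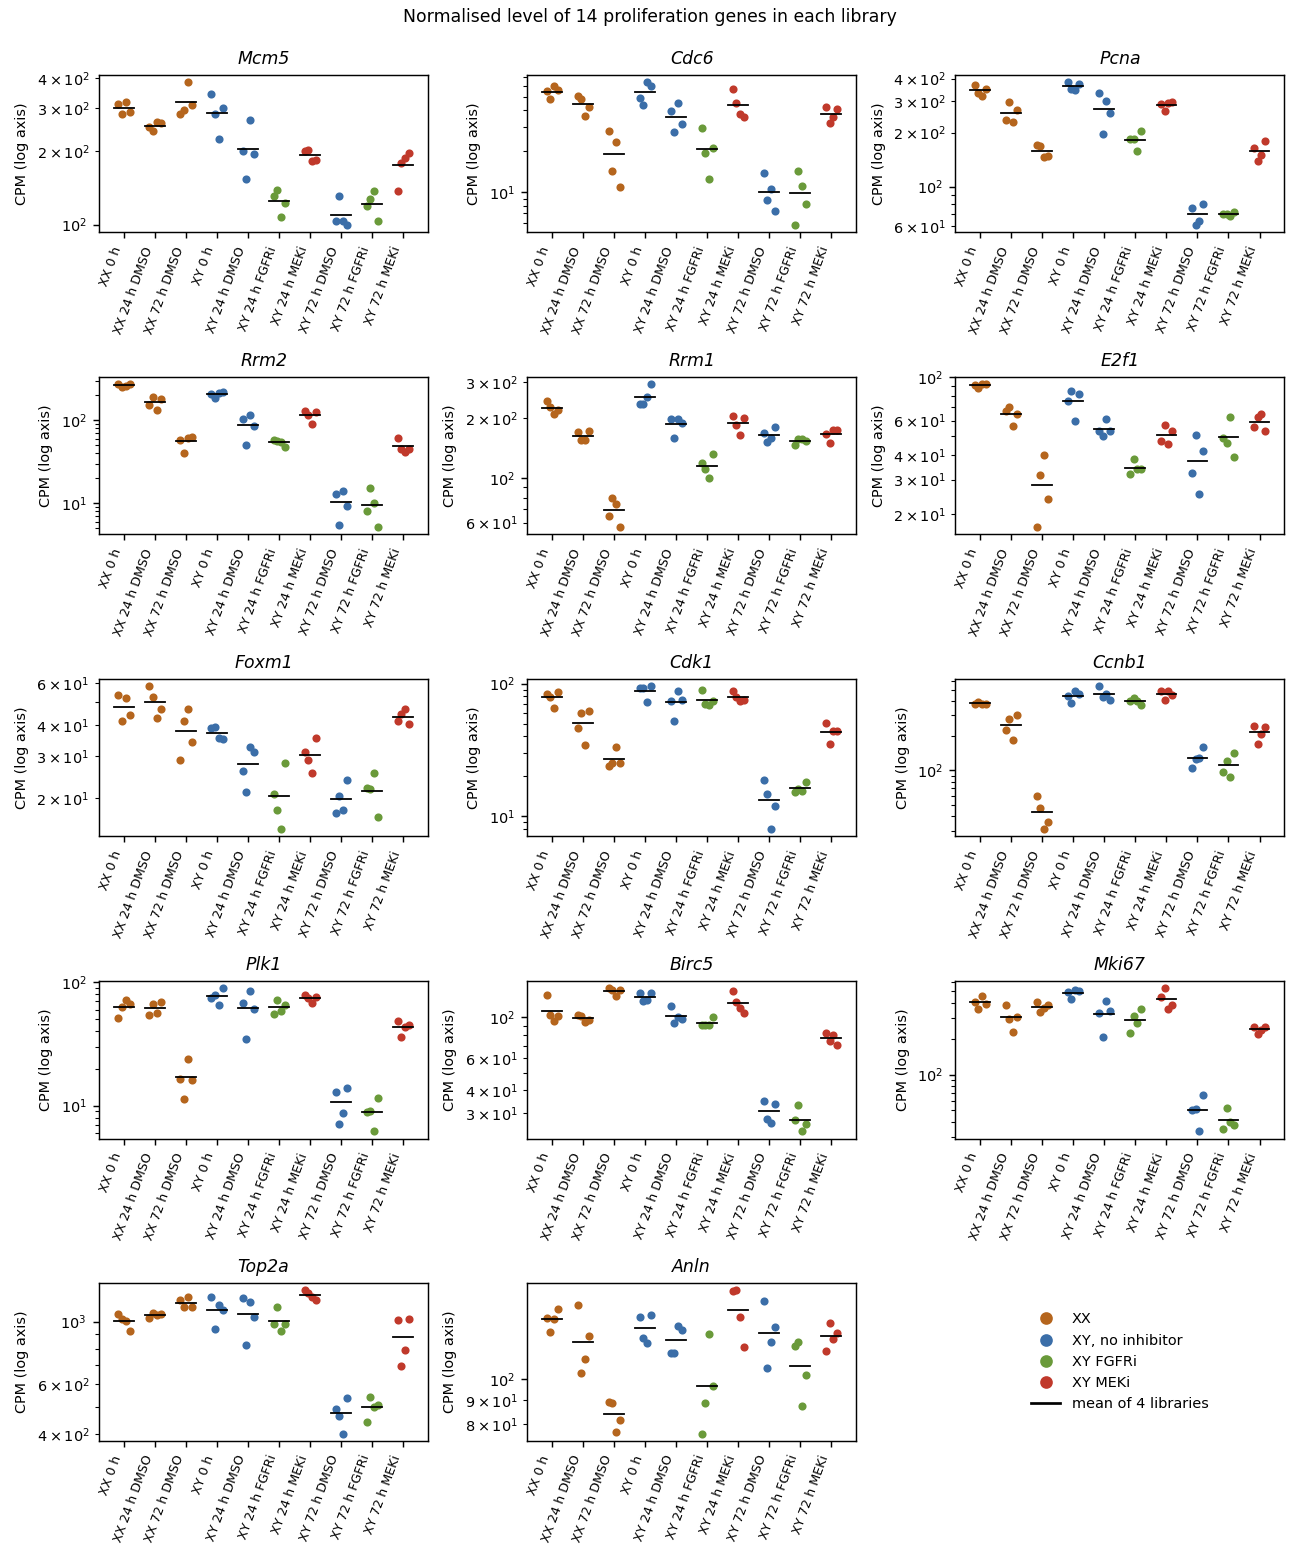
CPM of the 14 members with values by library (y axis, log scale) in the 10 groups (x axis), with a point for each library and a line at the mean of 4. Rrm2, Mki67, Plk1 and Cdk1 are lowest in XY 72 h DMSO and XY 72 h FGFRi, and Anln and Rrm1 show a different order of groups.

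Within pool 2, the 24 h FGFRi libraries gave a comparison over time that does not cross the pools, although the treatment at 24 h is then FGFRi. Between 24 h and 72 h in FGFRi, 19 members fell and 0 rose, where 14.2% of all genes fell. Of these, 15 were among the 23 mitosis members (median log2 fold change -1.35) and 4 among the 22 S phase members (median -0.55). Between 24 h FGFRi and 72 h DMSO, 19 members fell and 0 rose, again 15 of mitosis (median -1.19) and 4 of S phase (median -0.50), where 11.6% of all genes fell. In both comparisons the S phase count was not far above the share of all genes. In the comparison within FGFRi, log2 fold changes were -2.49 for Rrm2, -2.80 for Mki67, -2.81 for Plk1 and -2.22 for Cdk1. That of Mcm5 was -0.03, and Mcm5 was not called. Across pools, between 24 h and 72 h in DMSO, the medians were -1.61 for mitosis members and -0.89 for S phase members, so both lay nearer 0 within pool 2, where the earlier group also differs in treatment. The part of pool and treatment in this was not tested.

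XX germ cells lost an overlapping set of these genes by 72 h, and kept others at their level at 0 h. After 24 h in DMSO, 0 of 45 members were called by limma against XX 0 h, where 2.32% of all genes were higher and 0.911% lower. With the same contrast 1 member had an unadjusted p under 0.05 in limma, edgeR called 1 and DESeq2 called 0. The median log2 fold change was -0.30 (all genes 0.05), and of the markers Mael was called higher. By 72 h, 27 members were lower than at 0 h and 1, Bub1, was higher, where 18.4% of all genes were lower and 18.8% higher. Over the members the median log2 fold change was -1.26 and over all genes -0.01. Against 24 h, 23 were lower and 1 (Bub1) higher, where 11.9% of all genes were lower and 10.3% higher, and the markers called were those given below for 0 h. By 72 h, 8 of 9 licensing genes, all 4 genes of nucleotide supply and all 7 cyclins and mitotic kinases had fallen, as had 2 of 5 polymerase and clamp genes and 3 of 5 genes of the spindle checkpoint and APC/C. In contrast, 0 of 3 helicase activators, 2 of 8 genes of spindle, kinetochore and cytokinesis (Kif20a and Nusap1) and neither Mki67 nor Top2a fell. The call of Bub1b, of the spindle checkpoint, was lost with DESeq2 and without XX 72 h DMSO replicate 8. Summed somatic markers were at 26.2 to 47.6 CPM in XX 0 h and 81.0 to 127 CPM in XX 72 h DMSO (4 of 10 tested called higher, Foxl2, Wt1, Gata4 and Nr2f2), 3 of the 6 germ cell markers were called lower (Pou5f1, Dnd1 and Dppa3) and 1 higher (Mael), and their part in these differences was not tested.

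Of the S phase members in XX germ cells, Mcm5 was at 314, 283, 318 and 289 CPM at 0 h, 252, 242, 264 and 261 CPM at 24 h and 295, 386, 309 and 284 CPM at 72 h. Its 72 h libraries overlapped those at 0 h (log2 fold change 0.04, 95% CI -0.17 to 0.26), whereas the other 8 licensing genes fell by 1.60 to 2.51 on the log2 scale. Cdc6, one of these, was at 55.3, 48.3, 60.1 and 56.3 CPM at 0 h, 50.7, 48.2, 36.2 and 42.3 CPM at 24 h and 14.5, 23.4, 10.998 and 28.4 CPM at 72 h, with a log2 fold change of -1.64. Pcna was at 370.0, 332, 322 and 352 CPM at 0 h, 234, 296, 229 and 267 CPM at 24 h and 168, 147, 148 and 169.7 CPM at 72 h. No library of Pcna at 72 h reached one at 24 h, and its log2 fold change from 0 h was -1.10. Rrm2 was at 276, 253, 261 and 275 CPM at 0 h, 155, 193, 134 and 181 CPM at 24 h and 40.3, 61.6, 64.0 and 57.8 CPM at 72 h, and Rrm1 at 241, 226, 209 and 219.6 CPM, 169, 155, 155 and 172 CPM and 80.0, 74.3, 56.9 and 64.8 CPM. In XX germ cells both subunits fell, Rrm2 by 2.28 and Rrm1 by 1.71 on the log2 scale, with no overlap between 0 h and 72 h. E2f1 was at 90.9, 88.0, 92.3 and 92.0 CPM at 0 h, 66.9, 69.96, 56.5 and 64.7 CPM at 24 h and 31.5, 40.1, 23.9 and 17.1 CPM at 72 h, with a log2 fold change of -1.84 and no overlap.

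Of the mitosis members in XX germ cells, Mki67 was at 408, 356, 459.6 and 388 CPM at 0 h, 386, 294, 226 and 307 CPM at 24 h and 332, 363, 382 and 406 CPM at 72 h. Top2a was at 1067, 1019, 1006 and 924 CPM, 1028, 1069, 1051 and 1062 CPM and 1124, 1219, 1122 and 1192 CPM at these times, and Birc5 at 131, 102, 95.03 and 101.2 CPM, 102, 102, 94.6 and 96.2 CPM and 140.4, 129.8, 139.7 and 144 CPM. These 3 genes did not fall, with log2 fold changes from 0 h to 72 h of -0.12 (95% CI -0.38 to 0.15), 0.22 (0.03 to 0.41) and 0.44 (0.24 to 0.64). Cdk1 was at 83.9, 79.9, 65.2 and 86.4 CPM at 0 h, 46.4, 60.5, 34.2 and 62.7 CPM at 24 h and 25.3, 33.5, 25.2 and 24.1 CPM at 72 h, and Plk1 at 51.1, 62.6, 71.4 and 66.0 CPM, 54.8, 66.2, 56.0 and 69.0 CPM and 11.4, 24.1, 16.2 and 16.6 CPM. Ccnb1 was at 379.8, 395, 374 and 379.6 CPM at 0 h, 226, 279.8, 182 and 303 CPM at 24 h and 47.0, 30.8, 35.6 and 59.96 CPM at 72 h. These 3 genes of mitotic entry fell by 1.57, 2.03 and 3.11 on the log2 scale, and for each the 0 h and 72 h libraries did not overlap. Foxm1 was at 53.2, 41.7, 52.0 and 44.3 CPM at 0 h, 58.2, 52.5, 43.1 and 46.7 CPM at 24 h and 41.8, 46.8, 34.3 and 28.9 CPM at 72 h, and Anln at 135, 126, 135 and 141 CPM, 144, 103, 110.5 and 124 CPM and 88.8, 76.9, 81.5 and 89.4 CPM. Neither passed the test, although the 72 h libraries of Anln all lay below those at 0 h (log2 fold change -0.66).

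From 0 h to 72 h, 24 members were lower in both sexes, which is 70.6% of the XY list of 34 and 88.9% of the XX list of 27. Of all genes tested, 7.18% were lower in both, which is 47.1% of the XY list and 39.0% of the XX list. Called lower in XY but not in XX were Mcm5, Cdc45, Gins1, Prim1, Kif11, Tpx2, Birc5, Ttk, Mki67 and Top2a. Called lower in XX but not in XY were Pola1 and Rrm1, of DNA synthesis, and Cdc20, the activator of the APC/C, which was also called in XY in 6 of 18 alternative settings. Such lists do not show that the sexes differ, and the difference was tested directly.

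At 0 h, 0 of 45 members differed between XY and XX germ cells by limma, with 0 at an unadjusted p under 0.05 and 0 called by edgeR or DESeq2, where 1.34% of all genes were higher and 1.65% lower in XY. The 95% CI of 39 members lay wholly within a 1.5-fold difference either way. After 24 h in DMSO, 1 member was higher in XY and 0 were lower, where 4.00% of all genes were higher and 5.99% lower. This was Aurkb, the kinase of the chromosomal passenger complex, at 62.2, 47.4, 66.7 and 62.5 CPM in XY and 22.4, 30.3, 14.4 and 27.5 CPM in XX. The groups did not overlap, with a log2 difference of 1.31 (FDR 0.00391 by limma). Of the markers, Sox9 and Dppa3 were called higher and Mael lower in XY, and their part was not tested.

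After 72 h in DMSO, the sexes differed in both directions. Taking both directions together, members were called about as often as all genes tested. XY germ cells were lower in 12 members and higher in 5, where 18.1% of all genes were lower and 22.8% higher in XY, and the median log2 difference was -0.46 (all genes 0.10). Both groups were in pool 2. Lower in XY were Mki67 (log2 difference -2.92), Rrm2 (-2.46), Birc5 (-2.17), the spindle assembly factor Tpx2 (-1.81), Gins2 (-1.62), Mcm5 (-1.498), the checkpoint kinase Bub1 (-1.38), Top2a (-1.30), Pcna (-1.18), the primase subunit Prim1 (-1.12), Gins1 (-1.09) and the spindle protein Nusap1 (-0.99). Higher in XY were Ccnb1 (1.51), Mcm7 (1.38), Rrm1 (1.28), Cdt1 (1.20) and Cdc20 (0.88). The calls of Nusap1 and of Cdc20 were each lost in 9 of 18 alternative settings, 5 of which left out 1 library, and those that left out a library gave 15 to 16 members in place of 17. Subunits of 1 complex thus differed in sign, with Mcm5 lower and Mcm7 higher, and Rrm2 lower and Rrm1 higher in XY. Mcm7, which forms the MCM ring with Mcm5, was at 187, 214, 164 and 217 CPM in XY and 65.6, 93.0, 67.3 and 82.4 CPM in XX at 72 h, without overlap. Summed somatic markers were at 66.6 to 96.7 CPM in XY 72 h DMSO and 81.0 to 127 CPM in XX 72 h DMSO (3 of 10 tested called lower in XY, Foxl2, Wt1 and Nr5a1), and endothelial markers at 7.52 to 16.1 and 0 to 1.61 CPM, without overlap (Cdh5 called higher in XY, 4.44 on the log2 scale). Of the germ cell markers, Pou5f1, Dnd1 and Dppa3 were called higher in XY. The part of these markers in the differences was not tested.

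**Figure D4:**
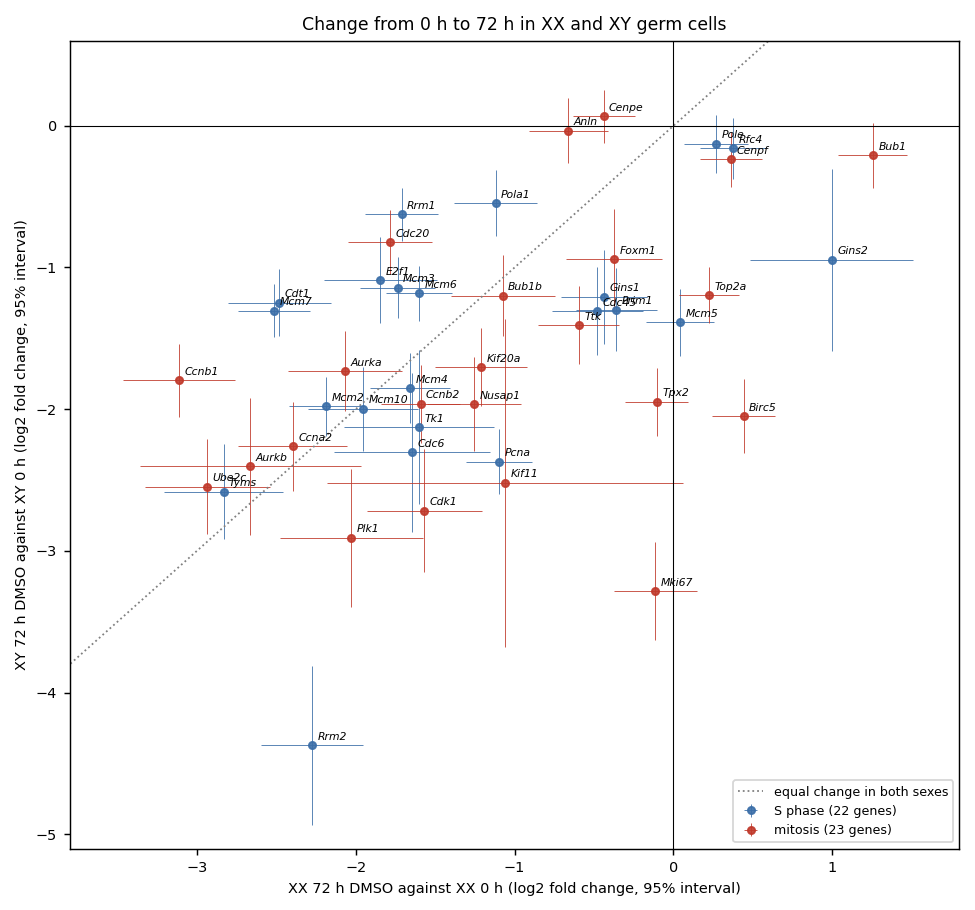
Log2 fold change from 0 h to 72 h in DMSO in XX germ cells (x axis) and XY germ cells (y axis), with a point for each of the 45 members, coloured by phase, with bars for the 95% CI from limma and a dotted line for equal change. Members near that line have like values in XX and XY, while Mki67, Birc5, Tpx2 and Top2a lie near 0 in XX and well below 0 in XY.

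The change of the XY minus XX difference from 0 h to 72 h was then tested as an interaction, which removes any pool difference that is the same for XX and XY. It was negative in 9 members and positive in 4, where it was negative in 12.9% of all genes and positive in 16.0%. Taking both directions together, members were called about as often as all genes tested. The negative members were Mki67 (-3.17 on the log2 scale), Birc5 (-2.49), Rrm2 (-2.10), Gins2 (-1.94), Tpx2 (-1.84), Bub1 (-1.46), Mcm5 (-1.43), Top2a (-1.42) and Pcna (-1.27). The positive members were Ccnb1 (1.32), Cdt1 (1.23), Mcm7 (1.21) and Rrm1 (1.09). Of the markers, Pou5f1, Dnd1 and Dppa3 were positive and Nr5a1 and Nr2f2 negative in the same test, and their part was not tested. For Gins2 the XX and XY libraries moved in opposite directions, from 11.9, 15.1, 10.5 and 11.1 CPM to 18.1, 19.4, 22.0 and 35.3 CPM in XX and from 10.97, 18.4, 12.48 and 13.7 CPM to 8.06, 5.02, 6.66 and 13.9 CPM in XY, although neither change was called on its own (log2 fold changes 1.00 and -0.95). Bub1 rose in XX by 1.26 on the log2 scale, from 151, 194, 171 and 198 CPM to 402, 372, 441 and 494 CPM, and was at 166, 188, 215 and 204 CPM and 171, 143, 164 and 191 CPM in XY.

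After 24 h with either inhibitor, no member was called against XY 24 h DMSO. For MEKi the count was 0 by limma, with 0 at an unadjusted p under 0.05 and 0 by edgeR or DESeq2, where 0.0525% of all genes were higher and 0.111% lower, and the median log2 fold change was 0.07 (all genes -0.02). The 95% CI of 38 members lay within a 1.5-fold change. For FGFRi the count was 0 by limma, with 1 at an unadjusted p under 0.05 and 0 by edgeR or DESeq2, where 0.131% of all genes were higher and 0.131% lower. In FGFRi the median log2 fold change was -0.34 (all genes -0.03), with -0.58 in S phase members and -0.19 in mitosis members. For FGFRi against DMSO, the 95% CI of 23 members lay within a 1.5-fold change. That comparison crosses the pools, and DMSO and FGFRi cannot be told apart from pool 1 and pool 2. Summed blood markers were at 181 to 466 CPM in XY 24 h MEKi and 22.3 to 114 CPM in XY 24 h DMSO (Hbb-y, Hba-a2 and Hba-x called higher), and their part was not tested.

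In the 24 h libraries, Mcm5 was at 200.1, 202, 183 and 184 CPM in MEKi and 131, 139, 107 and 122 CPM in FGFRi, and Cdc6 at 57.1, 45.2, 37.6 and 35.6 CPM and 29.5, 19.6, 12.6 and 21.1 CPM. Pcna was at 290.2, 263, 291 and 298 CPM in MEKi and 183, 185, 159 and 205 CPM in FGFRi, and E2f1 at 46.9, 56.8, 45.5 and 53.1 CPM and 32.1, 38.3, 33.9 and 33.8 CPM. The MEKi libraries of all 4 genes overlapped the DMSO libraries given above, and the FGFRi libraries of Mcm5 and E2f1 lay below them. Rrm2 was at 131, 118, 89.9 and 126 CPM in MEKi and 58.2, 56.2, 55.1 and 48.5 CPM in FGFRi, and Rrm1 at 204, 185, 165 and 199 CPM and 119, 111, 100.4 and 132 CPM. For Rrm1 all FGFRi libraries lay below DMSO. Among the mitosis members, Mki67 was at 448, 531, 352 and 381 CPM in MEKi and 221, 309.6, 269.7 and 353 CPM in FGFRi, Top2a at 1290.5, 1263, 1216 and 1194 CPM and 978, 1128, 925 and 977 CPM, and Birc5 at 139, 121, 113 and 106 CPM and 91.2, 91.2, 91.2 and 100.8 CPM. Cdk1 was at 88.7, 79.2, 74.1 and 75.6 CPM in MEKi and 89.4, 70.1, 69.4 and 73.3 CPM in FGFRi, Ccnb1 at 486, 410.1, 488 and 449.5 CPM and 404, 426, 399 and 369.8 CPM, and Plk1 at 78.9, 74.9, 67.7 and 76.1 CPM and 55.6, 71.7, 58.5 and 65.4 CPM. All these mitosis members overlapped DMSO in both inhibitors. Foxm1 was at 31.1, 28.7, 25.4 and 35.6 CPM in MEKi and 20.8, 17.9, 14.9 and 28.0 CPM in FGFRi, and Anln at 155, 155, 136 and 117 CPM and 76.4, 88.8, 125 and 96.5 CPM, also with overlap.

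After 72 h, FGFRi and MEKi were compared with DMSO within pool 2. With FGFRi, 0 of 45 members were called by limma, with 0 at an unadjusted p under 0.05 and 0 by edgeR or DESeq2, where 0.00656% of all genes were higher and 0% lower. The median log2 fold change was -0.03 (all genes 0.01). The 95% CI of 31 members lay within a 1.5-fold change, and those of Cdc6, Cdc45, Gins1, Gins2, Rrm2, Tk1, E2f1, Cdk1, Ccnb2, Plk1, Aurkb, Bub1b, Kif11 and Mki67 reached beyond it. For example, the log2 fold change was -0.26 for Mki67 (95% CI -0.66 to 0.13), -0.04 for Rrm2 (-0.71 to 0.64), 0.22 for Cdk1 (-0.26 to 0.70) and 0.01 for Pcna (-0.25 to 0.26). Only Cdc45, higher in FGFRi, and Ccnb2, lower, had libraries that did not overlap DMSO, where 3.65% of all genes lay higher and 3.06% lower in this way. After 72 h in FGFRi the median member stood at 35.6% of its XY 0 h mean, beside 38.0% in DMSO.

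With MEKi, at least 1 member of every role was called higher than in DMSO in the main fit, though not in every alternative. Of the 45 members, 17 were higher (7 of S phase and 10 of mitosis) and 0 lower, where 4.01% of all genes were higher and 5.11% lower. Their median log2 fold change was 0.81 over the members and 0.01 over all genes. In 31 members every MEKi library lay above every DMSO library, and in 1, Cenpe, below, where 18.9% of all genes lay above and 19.4% below. By role, the genes that were higher were 1 of 9 licensing genes (Cdc6), 2 of 3 helicase activators (Cdc45 and Gins2), 1 of 5 polymerase and clamp genes (Pcna), 3 of 4 genes of nucleotide supply (Rrm2, Tyms and Tk1), 1 of 2 transcription factors (Foxm1), 4 of 7 cyclins and mitotic kinases (Cdk1, Ccna2, Plk1 and Aurkb), 1 of 5 genes of the spindle checkpoint and APC/C (Ube2c), 3 of 8 of spindle, kinetochore and cytokinesis (Tpx2, Birc5 and Nusap1) and 1 of 2 of chromosome structure (Mki67). The call of Ube2c was lost in 10 of 18 alternative settings, that of Ccna2 in 5, that of Gins2 in 4, that of Foxm1 in 2 and those of Cdc45 and Tyms in 1 each. With DESeq2, 12 of the 17 remained, since Cdc45, Gins2, Foxm1, Ccna2 and Ube2c were not called. No helicase activator, transcription factor or gene of the spindle checkpoint and APC/C was then called. Leaving out 1 library gave 13 to 19 members. Summed markers of somatic cells were at 72.9 to 131 CPM in XY 72 h MEKi and 66.6 to 96.7 CPM in XY 72 h DMSO, of endothelial cells at 0.496 to 5.15 and 7.52 to 16.1 CPM (Cdh5 called lower in MEKi, -2.54 on the log2 scale), and of blood cells at 12.49 to 26.3 and 17.0 to 51.8 CPM. Of the 6 germ cell markers, Mael and Dnd1 were called lower in MEKi. The part of these markers was not tested.

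**Figure D5:**
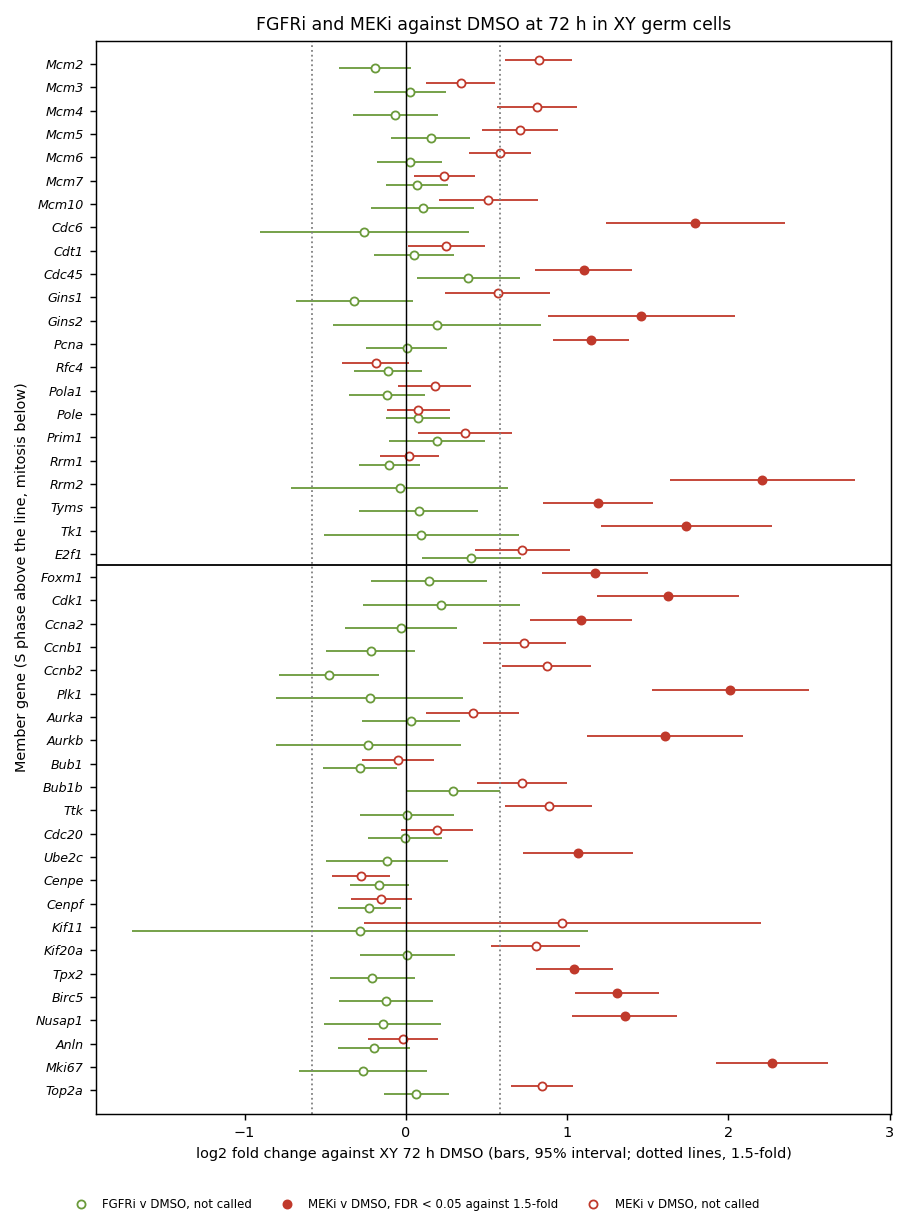
Log2 fold change against XY 72 h DMSO (x axis) of the 45 members (y axis) for XY 72 h FGFRi and XY 72 h MEKi, with bars for the 95% CI from limma, dotted lines at 1.5-fold and filled points for called members. FGFRi values lie around 0, and MEKi values reach 2.27 for Mki67 and 2.21 for Rrm2.

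The 72 h inhibitor libraries are given beside the DMSO values above. Mcm5 was at 119, 127, 138 and 103 CPM in FGFRi and 138, 179.8, 189 and 196 CPM in MEKi. Its MEKi libraries lay above DMSO, and its log2 fold change of 0.71 (95% CI 0.48 to 0.94) was not called. Cdc6 was at 5.75, 14.4, 11.2 and 8.19 CPM in FGFRi and 42.2, 32.2, 35.7 and 40.7 CPM in MEKi, with a log2 fold change in MEKi of 1.79 (FDR 0.000861 by limma). Pcna was at 70.1, 70.4, 68.8 and 72.0 CPM in FGFRi and 165, 139.7, 149 and 180.2 CPM in MEKi. All Pcna values in MEKi lay above DMSO and FGFRi, a log2 fold change from DMSO of 1.15 (FDR 0.000243 by limma). Rrm2 was at 8.12, 15.4, 10.1 and 5.17 CPM in FGFRi and 62.0, 45.8, 42.2 and 45.4 CPM in MEKi, and no MEKi library overlapped the others (log2 fold change 2.21, 95% CI 1.64 to 2.78, FDR 1.84e-05 by limma). Rrm1 was at 146, 157, 156 and 153 CPM in FGFRi and 166, 149.9, 174 and 173 CPM in MEKi. In contrast with Rrm2, its log2 fold change in MEKi was 0.02 (95% CI -0.16 to 0.21), and all groups overlapped. E2f1 was at 49.1, 46.2, 62.6 and 39.2 CPM in FGFRi and 55.6, 62.7, 64.4 and 52.9 CPM in MEKi. The MEKi libraries were above DMSO and overlapped FGFRi, and the log2 fold change of 0.72 was not called.

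Mki67 was at 35.0, 52.2, 39.8 and 37.9 CPM in FGFRi and 252, 220.4, 235 and 251 CPM in MEKi. It had the largest log2 fold change of the members in MEKi, at 2.27 (95% CI 1.92 to 2.62, FDR 4.57e-11 by limma), and its mean was 49.3% of that in XY 0 h, against 10.4% in DMSO. Plk1 was at 8.97, 9.08, 6.19 and 11.6 CPM in FGFRi and 48.1, 35.8, 43.6 and 44.7 CPM in MEKi, a log2 fold change in MEKi of 2.01 (FDR 1.1e-05 by limma). Cdk1 was at 15.2, 16.2, 15.5 and 18.1 CPM in FGFRi and 50.1, 35.3, 44.0 and 44.3 CPM in MEKi, a log2 fold change of 1.62 (FDR 0.000304). For both kinases, which drive mitotic entry, every MEKi library lay above every DMSO and FGFRi library. Birc5 was at 27.6, 33.3, 24.0 and 26.3 CPM in FGFRi and 81.9, 74.7, 79.7 and 70.9 CPM in MEKi, with a log2 fold change of 1.31, and Foxm1 at 22.0, 22.0, 25.5 and 16.8 CPM in FGFRi and 41.7, 44.8, 46.8 and 40.4 CPM in MEKi, with a log2 fold change of 1.17. Both were called, and the MEKi libraries of Foxm1 lay above those of XY 0 h as well. Ccnb1 was at 96.1, 121, 87.4 and 141 CPM in FGFRi and 242, 169, 209 and 240.2 CPM in MEKi, and Top2a at 443, 542, 499 and 507 CPM in FGFRi and 1010.0, 695, 794 and 1017 CPM in MEKi. These did not overlap DMSO, but their log2 fold changes of 0.74 (FDR 0.579 by limma) and 0.84 (FDR 0.0524) were not called. Top2a was called in 6 of 18 alternative settings, 3 of which left out 1 library, and Ccnb1 in 1. Anln, the mitosis member that differed least, was at 118, 119.9, 87.4 and 102 CPM in FGFRi and 115, 132, 122 and 126 CPM in MEKi (log2 fold change -0.02, 95% CI -0.24 to 0.20).

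XY 72 h MEKi was also set against XY 72 h FGFRi, XY 0 h and XX 72 h DMSO. At 72 h, 19 members were higher in MEKi than in FGFRi and 0 lower, where 5.71% of all genes were higher and 6.98% lower. They included Ccnb1 (log2 difference 0.95), its relative Ccnb2 (1.35) and the helicase subunit Mcm2 (1.01), which were not called against DMSO. Since FGFRi and DMSO are each compared with the same MEKi libraries, the values stand side by side and are not independent. Against XY 0 h, which crosses the pools, 19 members were lower in XY 72 h MEKi and 0 higher, where 8.83% of all genes were lower and 15.1% higher. The median log2 difference was -0.74 (all genes 0.04), with -2.16 for Rrm2, -1.48 for Ube2c and -1.01 for Mki67. The median member stood at 59.4% of its XY 0 h mean, and 15 members stood below 50%, against 34 in DMSO and 31 in FGFRi. Against XX 72 h DMSO, 16 members were higher in XY 72 h MEKi and 3 lower (Bub1, Birc5 and the clamp loader subunit Rfc4), where 17.2% of all genes were higher and 12.8% lower. The split was 14 higher and 5 lower with DESeq2 size factors, and 21 higher and 1 lower when scaled by library size alone. The largest differences were in Aurkb (2.37) and Ccnb1 (2.25), and the log2 difference of Mki67 was -0.65, not called. Markers moved with each of these comparisons. Against FGFRi, Nr2f2 (somatic) was called higher in MEKi, and Cdh5, Mael and Dnd1 lower. Against XY 0 h, all 4 tested blood markers were called lower (median log2 difference -2.99), as was Dppa3, and Foxl2, Fst and Mael were called higher. Against XX 72 h DMSO, Pou5f1, Dnd1 and Dppa3 were called higher and Foxl2 and Wt1 lower. The part of these markers was not tested.

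Whether the MEKi effect differed between 24 h and 72 h was tested as an interaction, which removes any pool difference shared by MEKi and DMSO. The effect was larger at 72 h in 4 members and smaller in 0, where it was larger in 1.21% of all genes and smaller in 0.675%. They were Mki67 (1.89 on the log2 scale, FDR 8.88e-05 by limma), Rrm2 (1.81, FDR 0.0174), Plk1 (1.73, FDR 0.0101) and Cdk1 (1.5004, FDR 0.0276). The median over the members was 0.77 (all genes 0.06). The count rested on single libraries, since 8 members passed without XY 24 h DMSO replicate 3, the library with the lowest share of members in its group, and 1 (Mki67) without XY 72 h DMSO replicate 4. In the same interaction, 3 of 4 tested blood markers (Hba-a1, Hba-a2 and Hba-x, list median -3.44 on the log2 scale) and the germ cell marker Dnd1 were called lower, and their part was not tested.

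Other genes of the cell cycle were counted by list in MEKi against DMSO at 72 h, where the background is again 4.01% higher. Of 15 G1 cyclins, CDKs and inhibitors, 6 rose and 0 fell. The largest changes were in Ccne1 (2.83) and Ccne2 (1.91), the E cyclins that activate Cdk2 at the start of S phase, and Ccnd1 (1.49), a D cyclin of G1, but also in Cdkn2d (1.59) and Cdkn1c (1.49), which encode the CDK inhibitors p19INK4d and p57KIP2 and act in the opposite direction. Ccne1 was at 5.82, 0.836, 3.99 and 4.64 CPM in DMSO, 2.37, 7.82, 3.48 and 6.04 CPM in FGFRi and 19.9, 25.8, 20.6 and 36.0 CPM in MEKi, and the MEKi libraries lay above the others. Of 15 tested genes of the RB, E2F and DREAM families, 2 rose, the activator E2f3 (1.41) and the repressor E2f8 (2.59). Of 31 other replication genes, 7 rose, including Chaf1b (2.21), a chromatin assembly factor, Gmnn (1.57), the inhibitor of Cdt1, Uhrf1 (1.44), which guides maintenance methylation, the origin recognition subunit Orc1 (1.40) and the histone mRNA binding protein Slbp (1.27). Of 30 other mitosis genes, 5 rose, the kinetochore genes Spc24 (2.17), Nuf2 (1.67) and Knl1 (1.02), the motor Kif4 (1.30) and the cytokinesis factor Ect2 (1.04). No gene of these 4 lists was lower in MEKi or called in FGFRi at 72 h. From XY 0 h to XY 72 h DMSO, the lists had 2 higher and 2 lower (G1), 1 higher and 9 lower (RB, E2F and DREAM), 0 higher and 18 lower (replication) and 2 higher and 18 lower (mitosis), against the same 15.2% of all genes lower and 20.2% higher.

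For 4 members, there are pseudogenes with rows of their own, whose counts over the 40 libraries were small beside the parent. Pcna had 20700 counts and Pcna-ps2 1978, Tyms 11122 and Tyms-ps 1171, Ccnb1 27235 and Ccnb1-ps 1192, and Ccnb2 14648 and Ccnb2-ps 131, so that reads could be divided between each pair. Kif11, a spindle motor, had between 0 and 29 counts a library, and its values are the least precise of the members.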

How the data were processed

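RNA was measured as described by the authors, who added a sample index and a unique molecular identifier at the poly(A) tail, used scPipe for demultiplexing and Rsubread for alignment to GRCm39, and collapsed reads to whole-number counts per gene, which they deposited without normalisation. The identifier length is given as 10 bases in the methods and 8 in the authors' code. Tool versions for counting are not given in the sources used here. Identifiers were matched to GENCODE M39 (40391 of 42422), and unmatched rows held 1.05% of the counts.

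Genes were filtered with filterByExpr (minimum count 10, minimum total 15), which kept 99.2% of the counts, and tested as in the study with TMM, voomWithQualityWeights, 1 mean for each of 10 groups over 40 libraries, and treat against 1.5-fold in limma 3.58.1 (edgeR 4.0.16, R 4.3.3). Benjamini-Hochberg adjustment (FDR < 0.05) ran over all 15252 genes. Somatic libraries, which were part of the fit in the study, were not analysed here. Intervals (95%) are unadjusted limma intervals. The fit was tested on simulated data. Alternatives were other scalings, no filter, edgeR, DESeq2 1.42.0, limma eBayes, no quality weights, own groups only, a replicate block, removal of counts shared through a sample index, and each library left out. A sample index was used in both pools for 16 pairs of libraries, and 3.25% of a partner's counts were taken as shared. This came from 88 Y-linked counts in XX 24 h DMSO libraries, whose XY partners held 2097. A background rate from 21 such counts in XX libraries with XX partners was first subtracted.

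The members and lists were chosen with earlier results of these data known. Any member may be named, with values by library for 12 members and the members that differed most and least in each phase in MEKi against DMSO at 72 h, and other genes were named only where called in that comparison, up to 5 a list. Aurkb, Mcm7, Gins2, Bub1 and Ccne1 were given by library, and the markers named, after their values were seen. Groups came from the labels. Each library is a separate pool of gonads. Chromosomal positions are of GRCm39. Total counts had a median of 2135128.5 a library, and this and 4 libraries a group limit the precision.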

Additional observations from a re-analysis of the deposited data

Results flagged for a closer look

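Single libraries stood apart from the other 3 of their group in 6 of 170 sets of 4 values checked, where chance gives about 1 in 20. These were the highest Mcm5 value in XY 72 h DMSO (replicate 4, 130.4 CPM), the lowest Cdk1 value in XY 0 h (replicate 5, 73.1 CPM), the highest Cdk1 value in XX 72 h DMSO (replicate 7, 33.5 CPM) and the highest Birc5 value in XY 24 h FGFRi (replicate 5, 100.75 CPM). The share of counts in S phase members was lowest in XX 24 h DMSO replicate 6, at 0.316%, and that in mitosis members was highest in XY 72 h DMSO replicate 6, at 0.307%.

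The MEKi effect differed between 24 h and 72 h, by the interaction in limma, for Mki67 (1.89 on the log2 scale), Rrm2 (1.81), Plk1 (1.73) and Cdk1 (1.5004), all larger at 72 h. It was larger at 72 h in 1.21% of all genes.

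The XY minus XX difference changed from 0 h to 72 h, by the interaction in limma, for 13 of 45 members. Among all genes it was more positive in 16.0% and more negative in 12.9%, so members were called about as often. The members are listed by the direction of the change in the XY minus XX difference. It was more negative at 72 h for Mki67 (-3.17 on the log2 scale), Birc5 (-2.49), Rrm2 (-2.10), Gins2 (-1.94), Tpx2 (-1.84), Bub1 (-1.46), Mcm5 (-1.43), Top2a (-1.42) and Pcna (-1.27). It was more positive for Ccnb1 (1.32), Cdt1 (1.23), Mcm7 (1.21) and Rrm1 (1.09).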

How the results depend on the processing

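No called member changed sign under any setting run. Member medians near 0 did, in FGFRi against DMSO at 72 h (-0.03 to 0.07 with library size alone and 0.05 without the filter), between the sexes at 24 h (-0.04 to 0.01 with edgeR) and, with a library left out, in these and in 2 other comparisons. With each library left out in turn, the number of members called was 1 to 1 for XY 24 h against 0 h, 26 to 30 for XY 72 h against 24 h, 33 to 36 for XY 72 h against 0 h, 15 to 16 for XY against XX at 72 h (17 with all libraries), 13 to 19 for MEKi against DMSO at 72 h, 1 to 2 for XY against XX at 24 h and 1 to 8 for the change of the MEKi effect between 24 h and 72 h. The single call between the sexes at 24 h became 2 without XX 24 h DMSO replicate 6 or without XY 24 h DMSO replicate 2 or 4. Within pool 2, chosen after seeing the data, 19 members fell between 24 h and 72 h, against 28 across pools.

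With DESeq2, 12 members were called for MEKi against DMSO at 72 h, all higher, where 397 of all genes were higher and 550 lower. With edgeR, 1 member was called in XX at 24 h against 0 h, 2 between the sexes at 24 h and 10 for the change of the MEKi effect. Over all genes, edgeR called 791 higher and 310 lower in XX at 24 h against 0 h. Between the sexes at 24 h it called 979 higher and 1381 lower in XY, and for the MEKi change 342 larger and 152 smaller. With eBayes and an observed fold over 1.5, a weaker criterion by construction, the counts were 5 for XY and 6 for XX at 24 h against 0 h, 10 between the sexes at 24 h and 27 at 72 h, 25 for the change of the sex difference, 10 for FGFRi at 24 h, 27 for MEKi against DMSO at 72 h, 31 for MEKi against XX 72 h, 29 for MEKi against XY 0 h and 29 for the change of the MEKi effect. With library size alone, the counts were 2 between the sexes at 24 h (1 higher and 1 lower in XY), 12 for MEKi against XY 0 h and 11 for the change of the MEKi effect. That scaling moved the median of all genes in MEKi against DMSO at 72 h from 0.01 to 0.12 and in MEKi against XY 0 h from 0.04 to 0.27 on the log2 scale, and member medians moved with it, to 0.91 and -0.51. For eBayes and for library size alone, calls over all genes are not given here, so those counts have no background beside them. The causes of the differences between settings were not tested.

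Replicate numbers gave no sign of pairing in the inhibitor comparisons checked (same-numbered libraries were correlated between -0.187 and 0.224). This cannot exclude pairing, since few pairs were checked. With the replicate block (estimated correlation -0.039), the number called was the same in every comparison, such as 17 for MEKi against DMSO and 34 for XY 72 h against 0 h.

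Without Cenpf, the member with the most counts, the share of counts in the members was 0.884% in XX 0 h, 0.891% in XY 0 h, 0.751% in XX 24 h DMSO and in XY 24 h DMSO, 0.790% in XY 24 h MEKi, 0.601% in XY 24 h FGFRi, 0.395% in XY 72 h FGFRi, 0.514% in XX 72 h DMSO, 0.388% in XY 72 h DMSO and 0.623% in XY 72 h MEKi. With mitochondrial genes and the 50 genes with the most counts left out of the total, it was 1.06% in XX 0 h, 1.07% in XY 0 h, 0.917% in XX 24 h DMSO, 0.932% in XY 24 h DMSO, 0.988% in XY 24 h MEKi, 0.787% in XY 24 h FGFRi, 0.514% in XY 72 h FGFRi, 0.690% in XX 72 h DMSO, 0.524% in XY 72 h DMSO and 0.767% in XY 72 h MEKi.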
